A study of Mus musculus with 12 samples.

Results

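The machinery that releases transmitter from synaptic vesicles was followed here through 52 genes read in the dorsal raphe (DR) of 12 mice. The genes were taken by their symbols from a list of the proteins of vesicle fusion, priming and recovery, and all 52 were among the 24421 genes of the count files. They fall into 8 protein classes, namely synaptotagmins (12 genes), SNARE proteins and complexins (7), SNARE recycling (3), vesicle membrane proteins (8), synapsins (3), Rab3 and its effectors (6), active zone and priming (8) and endocytosis (5). The controls were Sert Cre/+; Stat3 fl/+ littermates (n = 4, 2 females and 2 males), so they carried the same Cre and a single floxed Stat3 allele. The STAT3 KO animals were Sert Cre/+; Stat3 fl/fl (n = 8, 4 females and 4 males). Cre was driven by the gene of the serotonin transporter, so the deletion concerns the cells that express it, whereas the tissue was a square of 4 coronal sections of 300 µm below the aqueduct and held all of its cells. The mice were on a mixed C57BL/6 and 129 background, single-housed and 8 to 16 weeks old when the experiments began, and each gave 1 library. The comparison asked whether the genes of release differed between the genotypes, and which isoforms of each protein the DR used.

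A docked vesicle fuses when vesicle-associated membrane protein (VAMP, on the vesicle) zips together with syntaxin and SNAP-25 (on the plasma membrane) into the SNARE complex. Complexin binds the assembled complex, and synaptotagmin triggers fusion when calcium enters. Rab3, RIM, Munc13, bassoon and piccolo bring vesicles to the active zone and prime them, NSF with its SNAP adaptors takes used SNARE complexes apart, and dynamin, endophilin and their partners recover the membrane. Many of these proteins exist as paralogues that differ between neuron types. VAMP1, synaptotagmin-2 and complexin-1 are known from fast-firing neurons of the brainstem and spinal cord, and VAMP2, synaptotagmin-1 and complexin-2 from the forebrain.

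Libraries held 24379588 to 29645210 gene counts, and 3 counts, taken as the floor, equal 0.101 to 0.124 CPM (counts scaled to the library's total after TMM factors), a limit for counting error only. Stat3 itself was read at 64.7 to 67.9 CPM in controls and 62.7 to 70.1 CPM in STAT3 KO animals, and as all exons in all cells are counted together these values do not test the deletion. Serotonergic markers, summed over 9 genes that include Tph2 and Slc6a4, were at 1539 to 1937 CPM in controls and 1393 to 2054 CPM in STAT3 KO animals. Some libraries stood apart. Control 4 had 467 CPM of 10 forebrain excitatory markers in sum, against 72.4 to 93.3 CPM in the other controls and 59.0 to 160 CPM in STAT3 KO animals. STAT3 KO 8 and STAT3 KO 16 had 238 and 234 CPM of 6 choroid plexus markers, against 16.5 to 23.3 CPM in the other animals, and cerebellar markers were highest in STAT3 KO 16, at 476 CPM against 39.4 to 236 CPM.

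STAT3 KO 8 was also set apart by the base composition of its transcripts. Across 10604 genes, its deviation from the median of the other STAT3 KO animals followed the GC content of the longest annotated transcript with a Spearman coefficient of -0.522, whereas the coefficient of the other 11 libraries, each against its own genotype, lay between -0.226 and 0.294. The tenth of genes with the most GC was lower in STAT3 KO 8 by a median of -0.24 on the log2 scale and the tenth with the least was higher by 0.14. Genes are not independent replicates, so these are descriptions of the libraries. In bulk tissue fewer cells of a type and less RNA per cell cannot be told apart. The counts over all members are therefore given with and without these animals.

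**Figure D1:**
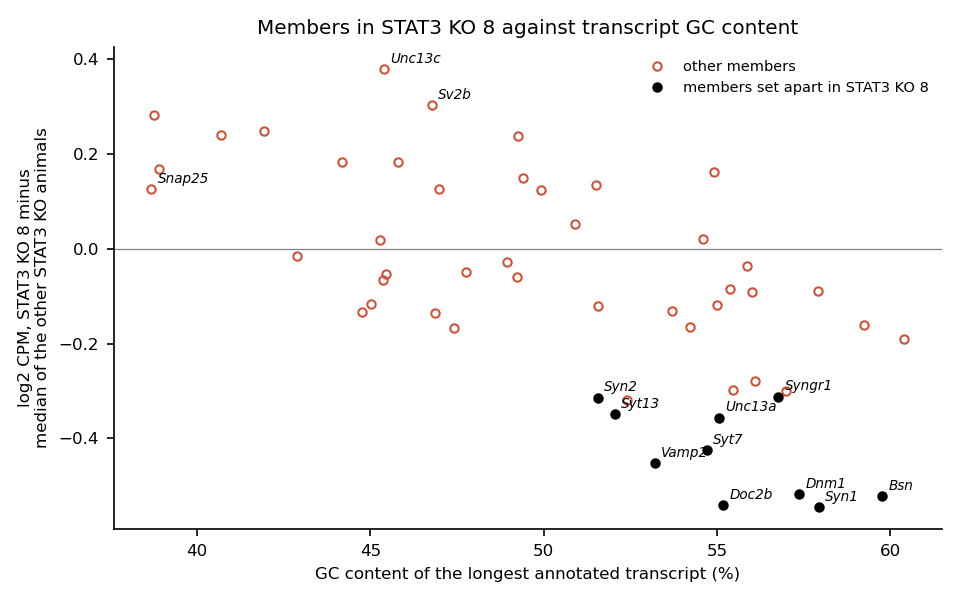
Deviation of STAT3 KO 8 from the median of the other STAT3 KO animals (log2 CPM, y axis) against the GC content of the longest annotated transcript (x axis), with 1 point per member. The filled points, 10 members for which STAT3 KO 8 was set apart as the lowest of its genotype, lie at 51.6% GC or more and at -0.31 or below, and of the 26 members below the median GC content of the members 16 lie above 0 and 10 below, against 2 and 24 of the others.

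Levels were compared between genes as CPM per kb of exon, as mean ± SD over the 12 animals. By this measure the most abundant member was Cplx1, the gene of complexin-1, at 427 ± 51.5 CPM per kb, followed by Snap25, whose product is a SNARE of the plasma membrane, at 372 ± 27.9. The values of the 2 genes overlapped between animals. Rab3a, a vesicle GTPase, and Syp, the gene of synaptophysin, came next at 260 ± 9.16 and 254 ± 8.42, closer to each other than their spread. Below them stood Syt11, the gene of a synaptotagmin that does not bind calcium, at 212 ± 9.48, Dnm1, which encodes the neuronal dynamin, at 188 ± 18.8, Vamp2 at 173 ± 15.7 and Sv2a at 169 ± 9.11. The least abundant members were Unc13b, the gene of Munc13-2, at 0.975 ± 0.0934 and Cplx3, a complexin of ribbon synapses, at 0.148 ± 0.103, the latter on 3 to 31 counts per library.

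Each class had a leading isoform. Among synaptotagmins that trigger fast release Syt1 was read at 110 ± 11.1 CPM per kb and Syt2 at 18.2 ± 3.81, so the isoform of fast-firing neurons was the minor one in this tissue. The vesicle SNAREs stood at 173 ± 15.7 (Vamp2) and 89.4 ± 11.7 CPM per kb (Vamp1), and complexins at 427 ± 51.5 (Cplx1) and 136 ± 9.94 (Cplx2). Of the SV2 glycoproteins Sv2a led, with Sv2b at 15.6 ± 2.11 and Sv2c at 3.98 ± 0.859 CPM per kb. Synapsins, which tether vesicles in the reserve pool, were ordered Syn1 (128 ± 12.4), Syn2 (61.0 ± 3.87) and Syn3 (6.49 ± 0.672). In the active zone class, where transcripts are long, the highest level was that of Unc13c, the gene of Munc13-3, at 26.3 ± 3.44 CPM per kb, against 13.5 ± 1.59 for Unc13a. Nsf led its class at 138 ± 8.43. Dividing by the longest transcript instead of all exons left the order much the same (Spearman coefficient 0.974 over the 52 genes), but 18 members moved by more than 1.5 times. The top of the order changed, with Snap25 at 517, Syp at 466 and Cplx1 at 427 CPM per kb of longest transcript, so Snap25 and not Cplx1 then led the SNARE class and all members.

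**Figure D2:**
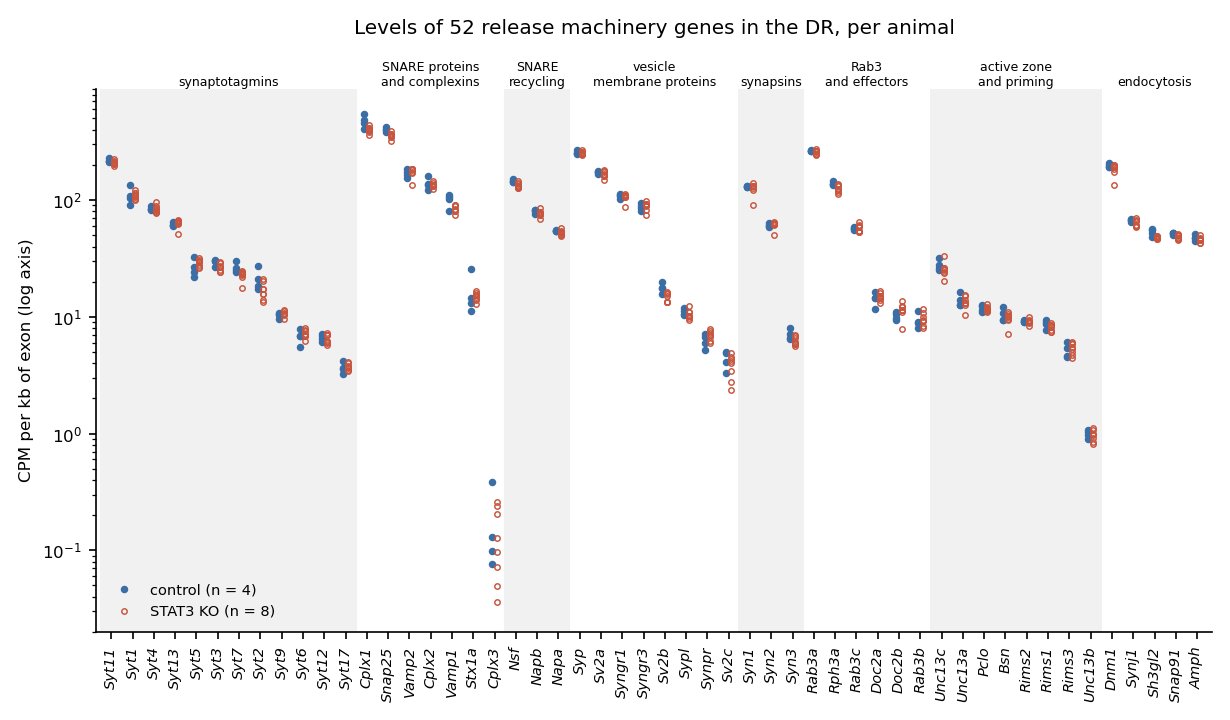
CPM per kb of exon on a log axis for each member (x axis, by class and by falling level), with 1 point per animal, filled for the 4 controls and open for the 8 STAT3 KO animals. Levels run from Cplx1 at a mean of 427 to Cplx3 at 0.148, and the genotypes lie close together for nearly all members.

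The SD of log2 CPM over the 12 animals was below 0.2 for 47 of the 52 members. The share of all genes below this value was not computed, so the count is no trait particular to the members. The widest spread was that of Cplx3 (0.832), followed by Sv2c (0.344), Stx1a (0.286), Syt2 (0.285) and Doc2b (0.204). Stx1a, the gene of a plasma membrane syntaxin, was at 68.1 CPM in control 4 and at 29.7, 35.1 and 38.8 CPM in controls 3, 13 and 11, while STAT3 KO animals held 34.5 to 44.0 CPM with a median of 39.9. Control 4, the animal with forebrain markers, was thus above every other library for this gene. Cplx3 was also highest in control 4, at 1.13 CPM, while the other controls held 0.224 to 0.385 CPM and STAT3 KO animals 0.107 to 0.765 CPM (median 0.332). Sv2c, the SV2 isoform of basal ganglia and midbrain neurons, ranged from 31.7 to 48.3 CPM in controls and from 22.7 to 47.5 CPM (median 39.5) in STAT3 KO animals, so the genotypes overlapped, with 2 STAT3 KO animals below the lowest control. Doc2b, the gene of a calcium sensor of spontaneous release, was at 40.6 to 47.6 CPM in controls. It lay at 47.8 to 59.0 CPM in 7 STAT3 KO animals and at 34.5 CPM in STAT3 KO 8, the lowest value of all.

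No member passed the threshold between genotypes after adjustment. In edgeR's quasi-likelihood test of 15453 genes, 0 genes had an adjusted p below 0.05 (0.0%), and 1184 (7.66%) had an unadjusted p below 0.05. All 52 members passed the expression filter. Among them 0 had an adjusted p below 0.05, the smallest being 0.615, and DESeq2 also called 0 of 52 (0.03% of all genes it tested). At an unadjusted p below 0.05 there were 12 members (23.1%). Each of the 12 was lower in STAT3 KO animals, which 4.05% of all genes were at that threshold. Of the 52, 38 (73.1%) were lower in STAT3 KO animals, against 50.6% of all genes, with a median log2 fold change of -0.05 against -0.0011. When genotypes were permuted exactly over the 12 animals (two-sided), 11 members had a p below 0.05, as had 7.1% of all genes. For 0 of 52 members did every STAT3 KO animal lie below every control (0.239% of all genes), and for 10 all 8 STAT3 KO animals lay below the control mean (5.3%). The members were chosen with earlier results of these data known, so these counts describe them and are no independent test.

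Which libraries were included moved the count more than the test did. Without control 4 the same 12 members had an unadjusted p below 0.05 and were lower, and 3 others, Syt5, Stx1a and Synpr, were higher (8.96% of all genes below the threshold, 4.92% below it and lower), while 31 of the 52 were lower at any p, against 47.8% of all genes, and their median log2 fold change was -0.03. Without STAT3 KO 8 there were 18 members (10.8% of all genes, 5.67% lower), 15 lower and 3 higher, the latter Syt13, Vamp2 and Doc2b. Without control 4, STAT3 KO 8 and STAT3 KO 16 together there were 22 (13.1% of all genes, 6.74% lower), 15 lower and 7 higher, and 27 members were lower at any p, against 47.9% of all genes, with a median of -0.01. Control 3 counted most in the other direction, since without it 6 members, all lower (5.0% of all genes, 2.12% lower), remained below the threshold, namely Snap25, Vamp1, Cplx1, Nsf, Sv2b and Sh3gl2.

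**Figure D3:**
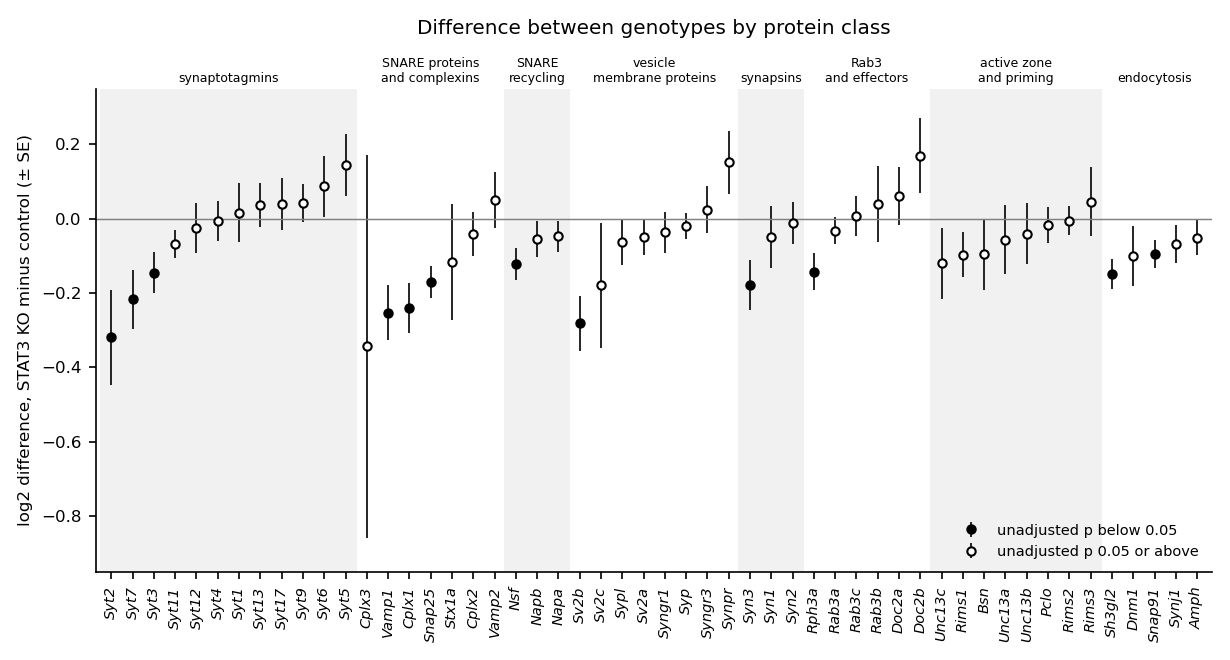
Log2 difference between genotypes (STAT3 KO minus control, y axis) for each member by class, from edgeR, with bars of 1 SE. The 12 filled points, those with an unadjusted p below 0.05, are below 0, and none of the 8 active zone genes is filled.

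The SNARE class held the member with the smallest p. Snap25 (chr2:136713453-136782428 on GRCm38, plus strand) was read at 2606 CPM in control 4 and at 2689, 2754 and 2848 CPM in controls 11, 13 and 3. In STAT3 KO animals it ran from 2199 CPM (STAT3 KO 10) to 2633 CPM (STAT3 KO 8) with a median of 2437 CPM, and 7 of 8 were below the lowest control. The log2 difference was -0.17 (SE 0.0431, unadjusted p = 0.00131, adjusted p = 0.615, exact permutation p = 0.00606), a change of -11.1%. The Snap25 transcript has the least GC of the 52, 38.7%, and without STAT3 KO 8 the difference was -0.19 (unadjusted p = 0.00021).

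Cplx1 (chr5:108518554-108550024) ranged from 889 CPM in control 4 over 1002 and 1067 to 1202 CPM in control 3. The 8 STAT3 KO animals lay between 786 and 969 CPM (median 885), all below the control mean, and 4 below control 4. The difference of -0.24 (SE 0.0665, unadjusted p = 0.0025, exact permutation p = 0.0101) became -0.31 without control 4 and -0.16 without control 3. Vamp1 (chr6:125215551-125245964) had the same order of controls, with 812 CPM in control 4 and 1042, 1083 and 1133 CPM in controls 11, 13 and 3, and with 753 to 923 CPM (median 847) in STAT3 KO animals. Only STAT3 KO 10 was below control 4, whereas all 8 were below the other 3 controls. Vamp1 differed by -0.25 (SE 0.0745, unadjusted p = 0.00398, exact permutation p = 0.0222), and by -0.34 without control 4.

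With all animals the paralogues Vamp2 and Cplx2 lay nearer to 0. Vamp2 was at 644 ± 50.8 CPM in controls, against 667 ± 65.7 CPM in STAT3 KO animals, a difference of 0.05 with a 95% interval from -0.11 to 0.21. Without STAT3 KO 8 Vamp2 differed by 0.099 (unadjusted p = 0.0427). Without control 4, STAT3 KO 8 and STAT3 KO 16 it differed by 0.14 (unadjusted p = 0.00836). For Cplx2 the difference was -0.04 (95% interval -0.17 to 0.08) with all animals and 0.035 without control 4. Stx1a differed by -0.12 with all animals and by 0.20 without control 4, and Cplx3 by -0.34 and 0.43. The sign for Cplx2, Stx1a and Cplx3 thus depended on that library. In sum 6 of the 7 genes of the class were lower, 3 of them at an unadjusted p below 0.05, and without control 4 there were 3 lower genes.

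Of the synaptotagmins, the calcium sensors of release and their relatives, 6 of 12 were lower and 6 higher, 3 of them lower at an unadjusted p below 0.05. Syt2 (chr1:134646677-134762593) showed the widest difference of the 12, -0.32 (SE 0.127, unadjusted p = 0.0241, exact permutation p = 0.0687). Its controls were at 132, 139, 162 and 209 CPM, the last being control 3, and its STAT3 KO animals at 103 to 160 CPM (median 126). Without control 3 the difference was -0.16 (unadjusted p = 0.196). Syt7 (chr19:10389090-10453180), the gene of a slow calcium sensor of facilitation and asynchronous release, was at 181 to 226 CPM in controls, and in STAT3 KO animals at 164 to 185 CPM apart from STAT3 KO 8 at 132 CPM. It differed by -0.22 (SE 0.0782, unadjusted p = 0.0139, exact permutation p = 0.0162), by -0.17 without STAT3 KO 8 and by -0.14 without control 3 (unadjusted p = 0.0946). Syt3 (chr7:44384102-44400187), another high-affinity sensor, differed by -0.14 (SE 0.0561, unadjusted p = 0.0206), with 84.1 to 95.3 CPM in controls and 74.8 to 91.6 CPM (median 83.4) in STAT3 KO animals.

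Syt1 was at 910 ± 151 CPM in controls, against 920 ± 61.4 CPM in STAT3 KO animals, a difference of 0.02 with a 95% interval from -0.15 to 0.19. Control 4 was at 1115 CPM and the other controls at 753 to 902 CPM, and without control 4 the difference was 0.13 (unadjusted p = 0.0624). Syt11, the most abundant of the class, was at 1109 to 1192 CPM in controls and 1016 to 1170 CPM (median 1079) in STAT3 KO animals, a difference of -0.07 (unadjusted p = 0.0988). Syt5 had the highest value of the class, 0.14 (SE 0.0828, unadjusted p = 0.102), and 0.27 without control 4. The remaining synaptotagmins, Syt4, Syt6, Syt9, Syt12, Syt13 and Syt17, lay between -0.03 and 0.09.

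Of the vesicle membrane proteins Sv2b (chr7:75114894-75309262) had the smallest p. Controls 13, 3, 11 and 4 had 131, 147, 148 and 167 CPM, and the STAT3 KO animals 111 to 138 CPM (median 119), 5 of them below the lowest control. The difference was -0.28 (SE 0.0736, unadjusted p = 0.00161, exact permutation p = 0.0101). Unlike Cplx1, Vamp1 and Syt2, Sv2b was highest in control 4, and without that animal it differed by -0.22. Sv2a differed by -0.05 (95% interval -0.15 to 0.05) and Syp by -0.02 (95% interval -0.09 to 0.06), with Syp at 1304 to 1406 CPM in controls and 1266 to 1402 CPM (median 1312) in STAT3 KO animals. Synpr, the gene of synaptoporin, had the highest value of the class, 0.15 (SE 0.0841, unadjusted p = 0.0904). In this class 1 of 8 genes had an unadjusted p below 0.05.

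Nsf (chr11:103821782-103954056), whose ATPase takes SNARE complexes apart, was at 1188 to 1265 CPM in controls and 1051 to 1224 CPM (median 1107) in STAT3 KO animals, and 7 of 8 were below the lowest control. STAT3 KO 8 was the exception. The difference was -0.12 (SE 0.0424, unadjusted p = 0.0114, exact permutation p = 0.0182). Its adaptors Napa and Napb differed by -0.05 each, with intervals that included 0.

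In the synapsin class Syn3 (chr10:86055125-86498896) was at 79.3, 81.6, 86.9 and 97.8 CPM in controls 13, 4, 11 and 3 and at 68.7 to 85.1 CPM (median 74.4) in STAT3 KO animals, a difference of -0.18 (SE 0.0669, unadjusted p = 0.0176, exact permutation p = 0.0384) that was -0.11 without control 3 (unadjusted p = 0.122). The exons of Syn3 share up to 1733 bases with Timp3 on the other strand, and whether reads were counted by strand is not stated, so the 2 genes may share counts. The same holds for Doc2a with Ino80e (815 bases), Syt12 with A930001C03Rik (614 bases), Unc13a with Colgalt1 (495 bases) and, over fewer bases, for other members. Syn1 was at 424 to 438 CPM in controls, at 403 to 464 CPM in 7 STAT3 KO animals and at 300 CPM in STAT3 KO 8. Its difference was -0.05, and 0.01 without STAT3 KO 8. Syn2 differed by -0.01 (95% interval -0.13 to 0.11).

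Among Rab3 and its effectors 1 of 6 genes, Rph3a, had an unadjusted p below 0.05. Rph3a (chr5:120940499-121010092) encodes rabphilin, which binds Rab3 and SNAP-25, and was at 628, 632, 633 and 673 CPM in controls 11, 13, 4 and 3 and at 527 to 631 CPM (median 572) in STAT3 KO animals. It differed by -0.14 (SE 0.0503, unadjusted p = 0.0125, exact permutation p = 0.0141). Rab3a had a narrow range, with 580 to 592 CPM in controls, 538 to 615 CPM (median 582) in STAT3 KO animals and a difference of -0.03 (95% interval -0.11 to 0.05). Rab3b and Rab3c differed by 0.04 and 0.01. Doc2b had the highest value of all members, 0.17 (SE 0.101, unadjusted p = 0.112), and 0.23 without STAT3 KO 8 (unadjusted p = 0.00161).

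The active zone class had 0 of 8 genes with an unadjusted p below 0.05. Its values ran from -0.12 for Unc13c (95% interval -0.32 to 0.08) to 0.05 for Rims3, with Rims2 at -0.01 (95% interval -0.09 to 0.08) and Pclo, the gene of piccolo, at -0.02 (95% interval -0.12 to 0.09). Unc13c was at 219 to 282 CPM in controls, at 180 to 230 CPM in 7 STAT3 KO animals and at 291 CPM in STAT3 KO 8. Without that animal it differed by -0.18 (unadjusted p = 0.0253).

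All 5 genes of endocytosis were lower, 2 of them at an unadjusted p below 0.05. Sh3gl2 (chr4:85205126-85639195) encodes endophilin A1, which bends the membrane of the forming vesicle. It was at 316 CPM in control 4, at 345, 362 and 368 CPM in controls 11, 13 and 3 and at 301 to 325 CPM (median 314) in STAT3 KO animals, a difference of -0.15 (SE 0.0415, unadjusted p = 0.00269, exact permutation p = 0.0101). Snap91 (chr9:86765923-86880654), the gene of the clathrin adaptor AP180, was at 461 to 478 CPM in controls and 416 to 469 CPM (median 442) in STAT3 KO animals, 7 of 8 below the lowest control. The difference was small and its spread narrow, at -0.10 (SE 0.0371, unadjusted p = 0.0211, exact permutation p = 0.0121). Dnm1 was at 1004 to 1082 CPM in controls, at 909 to 1044 CPM in 7 STAT3 KO animals and at 704 CPM in STAT3 KO 8, a difference of -0.10 that was -0.05 without STAT3 KO 8.

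**Figure D4:**
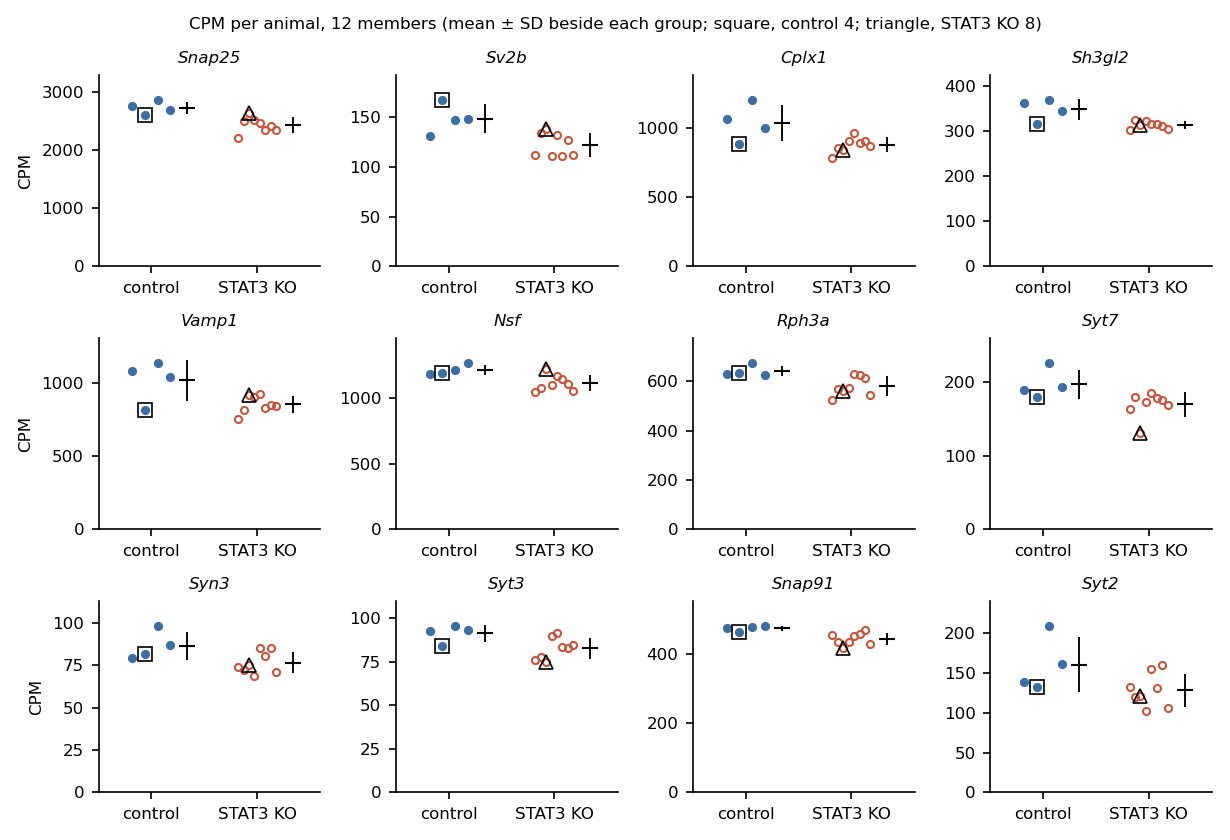
CPM per animal (y axes from 0) for the 12 members with an unadjusted p below 0.05, by genotype, with mean ± SD beside each group, control 4 in a square and STAT3 KO 8 in a triangle. Each gene is lower on average in STAT3 KO animals, the groups overlap in every panel, and control 4 is the lowest control for Snap25, Cplx1, Sh3gl2, Vamp1, Syt7, Syt3, Snap91 and Syt2 but the highest for Sv2b.

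Ratios between paralogues remove what both genes of a pair share within an animal. They were taken as differences in log2 CPM for 10 pairs, and their p-values are not adjusted. Syt2/Syt1 was -2.51 ± 0.507 (SD, n = 4) in controls and -2.85 ± 0.213 (SD, n = 8) in STAT3 KO animals (exact permutation p = 0.121). Vamp1/Vamp2 was 0.65 ± 0.316 and 0.36 ± 0.231 (exact permutation p = 0.109), Cplx1/Cplx2 0.60 ± 0.333 and 0.41 ± 0.0952 (exact permutation p = 0.137). In these 3 pairs control 4 was the lowest control, and without it the differences were -0.53, -0.44 and -0.34, with exact permutation p-values of 0.0242, 0.0182 and 0.00606. Without control 3, the highest control in all 3, they were -0.12, -0.19 and -0.07. Over all fits with 1 animal left out, the exact permutation p of the 3 pairs reached 0.467, 0.303 and 0.497. STAT3 KO 8 stood at 0.84 for Vamp1/Vamp2, against 0.09 to 0.51 in the other STAT3 KO animals. Without it Vamp1/Vamp2 differed by -0.36 (exact permutation p = 0.0273), and without control 4, STAT3 KO 8 and STAT3 KO 16 by -0.49 (exact permutation p = 0.0119). Sv2b/Sv2a differed by -0.23 (exact permutation p = 0.0606), by -0.18 without control 4 (exact permutation p = 0.145) and by -0.28 without STAT3 KO 8 (exact permutation p = 0.0182). The other 6 pairs differed by -0.09 to 0.06, and all had an exact permutation p above that of Cplx1/Cplx2, the lowest being 0.176 for Rims1/Rims2. Rims1/Rims2 differed by -0.15 without control 13 (exact permutation p = 0.0242). For Unc13c/Unc13a STAT3 KO 8 was at 1.17, against -0.11 to 0.52 in the other STAT3 KO animals, and the difference of -0.07 with all animals was -0.18 without it (exact permutation p = 0.291) and -0.33 without the 3 animals (exact permutation p = 0.0714).

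**Figure D5:**
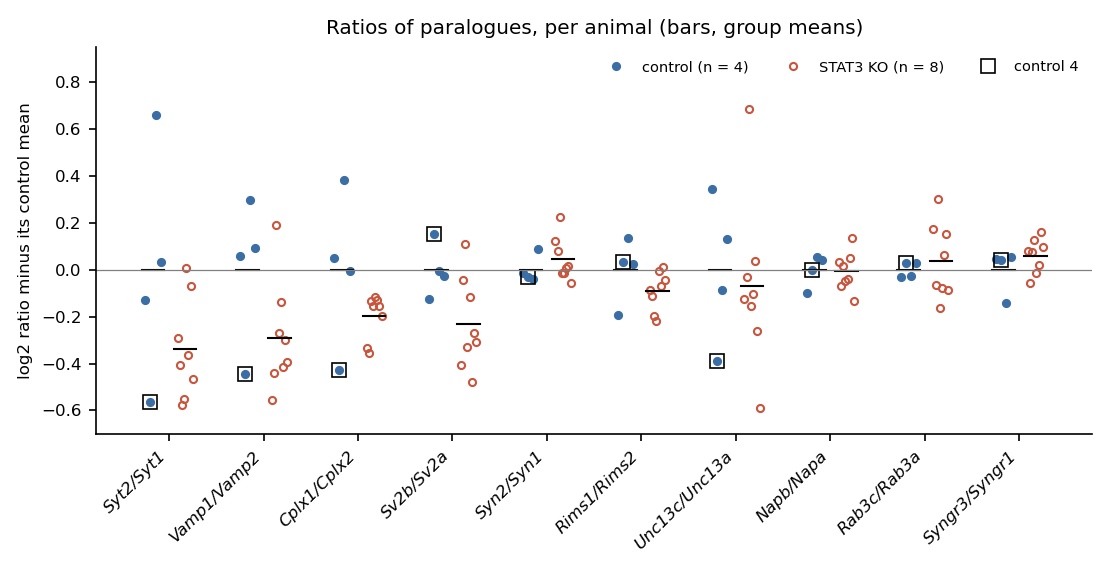
Log2 ratio of 10 pairs of paralogues (y axis, minus the control mean of the pair) with 1 point per animal, controls filled and STAT3 KO open, bars at group means and control 4 in a square. Control 4 lies below the other controls for Syt2/Syt1, Vamp1/Vamp2, Cplx1/Cplx2 and Unc13c/Unc13a and above them for Sv2b/Sv2a.

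Lists of cell type markers were set beside the members, and in each list 0 genes had an adjusted p below 0.05. Of 9 markers of fast-spiking and large brainstem neurons, which include Pvalb, Nefh, Kcna1 and Scn4b and none of the 52, 9 were lower in STAT3 KO animals (median log2 difference -0.33) and 7 had an unadjusted p below 0.05, where 4.05% of all genes were below it and lower, and the smallest adjusted p was 0.615. Without control 4, STAT3 KO 8 and STAT3 KO 16 all 9 had an unadjusted p below 0.05 and were lower (median -0.43), against 6.74% of all genes. Their summed level was 1808 CPM in control 4, 2435 to 2921 CPM in the other controls and 1737 to 2301 CPM in STAT3 KO animals. No STAT3 KO animal reached the controls other than control 4. Of 10 pan-neuronal markers 8 were lower and 2 had an unadjusted p below 0.05, with sums of 6671 to 7815 CPM in controls and 6172 to 7302 CPM in STAT3 KO animals. Of the 9 serotonergic markers 2 were lower and 7 higher, 1 of the latter at an unadjusted p below 0.05. Among markers of cells other than neurons, 7 of 7 of oligodendrocytes (median log2 difference -0.05), 6 of 7 of microglia (-0.05) and 5 of 6 of endothelial cells (-0.03) were lower, as was 1 of 7 of astrocytes (0.04), and 5 of 5 tested of choroid plexus were higher (0.32). Below an unadjusted p of 0.05 were 1 of the oligodendrocyte, 0 of the microglial, 0 of the endothelial, 2 of the astrocyte and 2 of the choroid plexus markers. Without control 4 the medians were -0.09 for oligodendrocytes (7 of 7 lower), -0.01 for microglia (4 of 7), -0.01 for endothelial cells (4 of 6), 0.07 for astrocytes (2 of 7) and 0.37 for choroid plexus (1 of 5). Without control 4, STAT3 KO 8 and STAT3 KO 16 they were -0.10 (7 of 7), -0.04 (5 of 7), -0.07 (4 of 6), 0.07 (3 of 7) and 0.02 (2 of 5) in the same order, with 0 choroid plexus markers at an unadjusted p below 0.05. In the same setting 9 of 10 pan-neuronal markers (median -0.05) and 1 of 9 serotonergic markers (median 0.06) were lower. Of the 10 forebrain markers 9 were lower with all animals (median -0.88, 3 at an unadjusted p below 0.05) and 0 were lower without control 4 (median 0.38), and 2 without the 3 animals (median 0.30). Of the 6 cerebellar markers 1 was lower (median 0.80), 2 without control 4 (median 0.42) and 3 without the 3 animals (median -0.38). The part of brainstem neurons or of forebrain tissue in the differences of the members was not tested.

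Other genes of the vesicle cycle were read from a list of 77, of which 76 were in the files and 72 were tested. In this list 46 were lower in STAT3 KO animals and 3 (4.17%) had an unadjusted p below 0.05, all 3 lower, where 7.66% of all genes had one. This order turned with the animals included, since 9 of 72 (12.5%) were below the threshold without control 4, 9 (12.5%) without STAT3 KO 8 and 12 (16.7%) without control 4, STAT3 KO 8 and STAT3 KO 16, against 8.96%, 10.8% and 13.1% of all genes. With all animals the 3 were Synj2, a paralogue of synaptojanin-1, at 62.1 ± 5.65 CPM (SD, n = 4) and 53.3 ± 3.67 CPM (SD, n = 8), Slc17a6, the vesicular glutamate transporter of subcortical neurons, and Itsn2, the gene of an endocytic scaffold. The log2 differences were -0.22, -0.29 and -0.11. The next smallest p belonged to Cadps and Picalm, with differences of -0.11 and -0.07. Slc18a2, which loads serotonin into vesicles, was at 349 CPM among controls and 357 CPM among STAT3 KO animals (unadjusted p = 0.725). By class, 0 of 14 other SNARE proteins and regulators, 0 of 9 other vesicle proteins, 0 of 9 other active zone proteins and 2 of 20 other endocytosis proteins had an unadjusted p below 0.05.

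The sexes were compared with genotype in the model. Between males and females 14 of 15748 genes had an adjusted p below 0.05 (0.0889%) and 0 of the 52 members. At an unadjusted p below 0.05 there were 4 members, Syt5, Nsf and Rab3b, higher in males, and Pclo, higher in females, or 7.69% against 7.24% of all genes. For the interaction of genotype with sex 0 genes and 0 members had an adjusted p below 0.05, while 10 members (19.2%) had an unadjusted p below 0.05, against 5.52% of all genes. Vamp1 and Cplx1 showed it most among the abundant members. Vamp1 was at a mean of 1108 CPM in control females and 816 CPM in STAT3 KO females, and at 927 and 893 CPM in males, an interaction of 0.38 (SE 0.122, adjusted p = 0.883). Cplx1 was at 1135 and 857 CPM in females and at 946 and 904 CPM in males, an interaction of 0.33 (SE 0.109, adjusted p = 0.883). Control males were only controls 4 and 11, and without control 4 there were 3 such members (5.77%), Syt6, Synpr and Doc2a, against 4.38% of all genes. Stx1a was called for the interaction in 1 setting, without control 11, which left control 4 as the only control male.

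Because the gene deleted in these animals encodes a transcription factor, the promoter windows of the members were searched for the core of its known motif, TTCNNNGAA, which reads the same on both strands. RefSeq windows of 300 bases, from 250 bases before to 50 after a gene start (GRCm38.p6), were found for 39 of the 52 members, 53 windows in all. Of the 12 members with an unadjusted p below 0.05 between genotypes, 9 had a window, and Snap25 had none. The core was in 2 of the 53 windows (3.77%), against 8.3% of all 32851 windows. The member windows held more GC, with a median of 62.7% against 52.7%, and the core has mostly A and T among its fixed letters. The part of base composition in these shares was not tested. Those 2 windows lie at internal starts of Sv2b and Syn2 and are printed with the core in capitals, followed by the windows of Cplx1 and Vamp1, in which these letters were not found. The Sv2b window is at chr7:75219970-75220269 on the minus strand, with the core beginning 4 bases before the start, and the Syn2 window at chr6:115238744-115239043 on the plus strand, with the core beginning 176 bases before it. The Cplx1 window is at chr5:108549978-108550277 on the minus strand and the Vamp1 window at chr6:125215331-125215630 on the plus strand.
Sv2b: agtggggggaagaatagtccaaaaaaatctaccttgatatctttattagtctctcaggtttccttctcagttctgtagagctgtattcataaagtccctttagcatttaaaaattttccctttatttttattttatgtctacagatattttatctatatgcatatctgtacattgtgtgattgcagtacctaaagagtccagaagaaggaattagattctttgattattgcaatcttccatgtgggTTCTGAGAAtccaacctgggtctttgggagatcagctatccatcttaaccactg
Syn2: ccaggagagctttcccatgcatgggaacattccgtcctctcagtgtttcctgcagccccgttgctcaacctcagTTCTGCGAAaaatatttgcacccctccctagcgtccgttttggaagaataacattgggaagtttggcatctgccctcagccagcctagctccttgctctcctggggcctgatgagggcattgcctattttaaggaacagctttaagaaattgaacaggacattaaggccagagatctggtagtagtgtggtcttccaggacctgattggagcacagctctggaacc
Cplx1: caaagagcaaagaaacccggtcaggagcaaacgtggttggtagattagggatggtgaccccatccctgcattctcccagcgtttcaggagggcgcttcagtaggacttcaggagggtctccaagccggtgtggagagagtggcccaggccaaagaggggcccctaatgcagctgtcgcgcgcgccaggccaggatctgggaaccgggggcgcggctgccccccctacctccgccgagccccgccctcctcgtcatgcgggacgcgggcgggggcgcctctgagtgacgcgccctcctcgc
Vamp1: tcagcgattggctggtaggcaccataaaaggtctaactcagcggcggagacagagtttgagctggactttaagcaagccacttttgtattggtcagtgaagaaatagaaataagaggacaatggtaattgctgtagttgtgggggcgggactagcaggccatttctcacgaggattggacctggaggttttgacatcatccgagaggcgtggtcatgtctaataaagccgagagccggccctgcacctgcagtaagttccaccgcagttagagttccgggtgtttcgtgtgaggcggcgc
Of the genes with the core, Sv2b was among the 12 lower members and Syn2 was not. Both also have windows without it. A match is a description of letters and not of binding.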

How the data were processed

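RNA of the DR was sequenced by the authors from 12 mice, with 1 library per animal and no pooling. Per the labels, libraries were made with a NEBNext kit from RNA of good integrity and reads were mapped to mm10 with STAR 2.5.0b, and bcl2fastq and DESeq2 1.6.3 are also named. The deposited values are raw read counts per gene symbol without normalisation. The counter, the annotation and the use of strand are not given in the sources used here. Each file ends with lines for reads without a gene or with an ambiguous one (13.9% to 15.8% of a library's reads), which were left out of library sizes and tests. Genotype, sex and animal number were taken from the labels.

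CPM were computed with TMM factors over the genes that passed filterByExpr, and log2 CPM with a prior count of 2. That filter asks for a level worth about 10 counts in as many libraries as the smaller genotype has, and for 15 counts in total. Genotypes were compared with edgeR's two-sided quasi-likelihood test without covariate, with Benjamini-Hochberg adjustment over all 15453 genes and a threshold of 0.05. The SE was obtained from the log2 fold change and the root of its F statistic. For single values the genotypes were permuted exactly (two-sided, 495 splits, smallest possible p 0.00202). Sex and its interaction with genotype were tested in a model with both. Exon lengths and positions are those of GENCODE vM21 (GRCm38). The alternatives were DESeq2, the likelihood ratio test, limma-voom with quality weights, RLE factors, a filter of 1 count only or of 10 counts in each library, an added sex term, and fits that each left out 1 animal. The permutation test and the ratios were repeated with RLE factors and a prior count of 0.5. Leaving out control 4, STAT3 KO 8 and STAT3 KO 16 together and the comparison with GC content were chosen after seeing the data. The scripts were tested on simulated data. Computations used R 4.3.3, edgeR 4.0.16, limma 3.58.1, DESeq2 1.42.0, Python 3.11.15, pandas 2.3.3, numpy 2.4.6, scipy 1.17.1 and matplotlib 3.10.9.

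The members, classes, marker lists and pairs were chosen with earlier results of these data known. Values per animal are given for members with an unadjusted p below 0.05 (up to the 12 smallest), for the 5 with the widest spread and for the most abundant of each class. Of other vesicle cycle genes, the 5 with the smallest p are named, and Slc18a2 was added after its values were seen, as were members named for a setting or for a class's extreme value.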

Additional observations from a re-analysis of the deposited data

Results flagged for a closer look

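Of 104 groups of values, 52 members in each genotype, 12 held an animal whose gap to the nearest other was a large share of the group's range, where chance alone gives about 5.2 at 1 in 20. Of the 12, 10 were in STAT3 KO 8, and in each that animal was the lowest of its genotype. The rule was applied to the members only. Whether other genes were set apart as often in STAT3 KO 8 was not tested, so the count describes that library. The gap was 0.795 of the range for Syngr1 (423 CPM against 512 to 538 CPM in the other STAT3 KO animals), 0.758 for Syn2 (350 CPM against 426 to 454 CPM), 0.737 for Syt13 (193 CPM against 236 to 253 CPM), 0.728 for Vamp2 (513 CPM against 647 to 705 CPM) and 0.677 for Syn1 (300 CPM against 403 to 464 CPM). It was 0.649 for Syt7, 0.648 for Dnm1, 0.607 for Bsn, 0.607 for Doc2b and 0.529 for Unc13a. The transcripts of these 10 members held 51.6% to 59.8% GC (median 55.1%), those of the other 42 members 38.7% to 60.4% (median 49.2%), and STAT3 KO 8 was the library whose gene levels followed GC content most closely (Spearman coefficient -0.522). Of the 26 members below the median GC content of the members (51.5%), 16 were higher and 10 lower in STAT3 KO 8 than the median of the other STAT3 KO animals, by -0.17 (Rims1) to 0.38 (Unc13c) on the log2 scale with a median of 0.12. Of the other 26 members 2 were higher and 24 lower, with a median of -0.29 and the highest value in Napa (0.16, 54.9% GC). The 12 members with an unadjusted p below 0.05 between genotypes had a median GC content of 48.2%. The part of base composition in these values was not tested. In controls, the gap was 0.857 of the range for Syt13 in control 4 (245 CPM against 228 to 230 CPM) and 0.897 for Rph3a in control 3 (673 CPM against 628 to 633 CPM).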

How the results depend on the processing

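Across 20 alternatives members with an adjusted p below 0.05 between genotypes stayed at 0, and the median log2 fold change of the members stayed negative, at -0.05 with all animals, -0.02 with voom, -0.03 without control 4 or without STAT3 KO 8 and -0.01 without control 4, STAT3 KO 8 and STAT3 KO 16. All genes with an adjusted p below 0.05 were 6 with DESeq2, 3 with the likelihood ratio test, 2 without control 4, STAT3 KO 8 and STAT3 KO 16, and 0 to 1 with 1 animal left out, the latter without control 4. Members with an unadjusted p below 0.05 were 22 without those 3 animals and 6 to 18 with 1 animal left out, with 6 without control 3 and 18 without STAT3 KO 8. Other vesicle cycle genes below that threshold were 6 of 75 with DESeq2 (8.0% against 6.21% of all genes), 9 of 72 with voom (12.5% against 10.4%), 12 without the 3 animals (16.7% against 13.1%) and 3 to 9 with 1 animal left out, with 9 (12.5%) without control 4 or STAT3 KO 8 (8.96% and 10.8% of all genes). Genes called between the sexes were 24 with DESeq2. For the interaction 2 genes were called with DESeq2 and 0 to 36 with 1 animal left out, with 36 without control 11, and 0 to 1 members. Among the members with values per animal, the log2 difference without the 3 animals turned to 0.31 for Cplx3, 0.23 for Stx1a, 0.021 for Syp and 0.032 for Syn1 (exact permutation p = 0.94, p = 0.0714, p = 0.595 and p = 0.44), and the ratio Syn2/Syn1 to -0.00027. Members outside that set turned too, such as Cplx2 at 0.035, and 27 of the 52 were lower, against 38 with all animals. With 1 animal left out the differences ran from -0.59 to 0.43 for Cplx3, -0.25 to 0.20 for Stx1a, -0.032 to 0.0073 for Syp and -0.073 to 0.00895 for Syn1, with exact permutation p-values from 0.394 to 0.852, 0.0606 to 0.939, 0.23 to 0.885 and 0.603 to 0.861. The ratios ran from -0.20 to 0.047 for Unc13c/Unc13a, -0.0396 to 0.011 for Napb/Napa and -0.00027 to 0.066 for Rab3c/Rab3a. The cause was not tested. No paired analysis was possible because the labels give animal numbers but no litter. With 4 controls, 1 control moves any value.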

Other observations

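Within the 8 STAT3 KO animals, the level of Cplx1 followed the summed level of the 9 markers of fast-spiking and large brainstem neurons (Pearson's r = 0.911, exact permutation p = 0.00164; Spearman's rho = 0.929, exact permutation p = 0.00223). Without the 2 animals farthest from the median of the marker sum r was 0.86 (exact permutation p = 0.025). The relation was looked for after the values had been seen, for the 12 members with an unadjusted p below 0.05 between genotypes. Over these 12 relations the adjusted p of Cplx1 was 0.0196, which describes chosen genes and is no independent test. Genes other than these 12 were not set against the marker sum. By Pearson's r the next were Syt3 (r = 0.804, adjusted p = 0.0933) and Rph3a (r = 0.767, adjusted p = 0.104), and by Spearman's rho Rph3a (0.833, adjusted p = 0.0923) and Syt7 (0.786, adjusted p = 0.112). Snap25, the member with the smallest p between genotypes, had an r of 0.201, Vamp1 of 0.491 and Syt2 of 0.518, and none of these 3 passed. Both measures come from the same library, and each sex holds 4 STAT3 KO animals, for which values are given without a coefficient. In males Cplx1 was at 842, 897, 907 and 969 CPM in the animals with marker sums of 1750, 1895, 2005 and 2301 CPM, and in females at 786, 872, 859 and 911 CPM in those with 1737, 1868, 1916 and 2130 CPM.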
